A study of Mus musculus with 6 samples.

Results

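Open chromatin was examined around 7 genes of the skeletal programme in the mouse embryonic face: Sox5, Sox6, Acan, Matn1, Hapln1, Sp7 and Nkx3-2. Bulk ATAC-seq, which cuts accessible DNA with the transposase Tn5, had been made from freshly dissected tissue of wild-type (WT) embryos at E11.5, with a pair of libraries for each of the labels maxillary process, mandibular process and nose (2 per label) and a cell type given as mixed. Nothing in the labels ties the paired libraries to separate embryos, so differences between them may be technical. Merging peaks of the 6 libraries that overlapped by 1 bp or more gave 382006 regions, and each was counted for a gene when its strongest summit lay inside the gene body or was nearest, within 100 kb, to a start of one of its protein-coding transcripts. By that rule 399 regions belonged to the 7 genes: 173 to Sox5, 120 to Sox6, 41 to Hapln1, 30 to Nkx3-2, 17 to Acan, 10 to Sp7 and 8 to Matn1.

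Sox5 and Sox6 encode closely related SoxD transcription factors that lack a transactivation domain and work with Sox9 to switch on cartilage matrix genes. Acan encodes aggrecan, the large proteoglycan that gives cartilage its resistance to compression, Hapln1 the link protein that fastens aggrecan to hyaluronan, and Matn1 matrilin-1, an adaptor protein of mature cartilage. Nkx3-2 (Bapx1) is a homeobox repressor that promotes cartilage formation and is needed for the joint of the primary jaw, and Sp7 (osterix) is the zinc-finger factor that osteoblasts require. At this stage the facial prominences hold mesenchyme that has largely not yet formed cartilage or bone.

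The windows below show the DNA at the regions on which the description turns. Each runs 100 bp to either side of the region's strongest summit on the plus strand of GRCm38, none lies in an annotated UTR, and capitals mark matches, on either strand, to the searched motifs: ACAATGG and ACAAAGG (SOX), TGTGGTT (RUNX), TGGGTGGTC (GLI), TAATTA (homeodomain), TGANTCA (AP-1), GGAATG (TEAD), and CAGCTG and CATCTG (E-box). The first 6 are, for each gene but Matn1, the best-ranked region away from start sites that was called in all 6 libraries.
Sox5, chr6:144075009-144075209, intron: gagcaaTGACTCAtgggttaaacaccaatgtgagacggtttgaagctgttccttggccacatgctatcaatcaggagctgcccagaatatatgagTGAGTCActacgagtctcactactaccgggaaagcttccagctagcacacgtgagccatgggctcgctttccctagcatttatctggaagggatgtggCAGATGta
Sox6, chr7:115889905-115890105, intron: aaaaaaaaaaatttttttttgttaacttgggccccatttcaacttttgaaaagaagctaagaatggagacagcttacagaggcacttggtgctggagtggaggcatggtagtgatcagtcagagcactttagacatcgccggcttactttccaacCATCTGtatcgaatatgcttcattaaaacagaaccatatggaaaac
Nkx3-2, chr5:41768433-41768633, upstream: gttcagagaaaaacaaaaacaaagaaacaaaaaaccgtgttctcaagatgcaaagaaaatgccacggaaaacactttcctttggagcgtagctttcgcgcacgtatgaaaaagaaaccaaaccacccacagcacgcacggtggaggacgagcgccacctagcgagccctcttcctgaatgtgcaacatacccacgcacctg
Acan, chr7:78990354-78990554, upstream: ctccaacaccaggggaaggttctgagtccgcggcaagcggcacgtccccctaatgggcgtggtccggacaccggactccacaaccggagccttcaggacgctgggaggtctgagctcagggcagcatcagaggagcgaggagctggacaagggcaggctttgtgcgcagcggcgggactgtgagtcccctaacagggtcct
Hapln1, chr13:89634219-89634419, downstream: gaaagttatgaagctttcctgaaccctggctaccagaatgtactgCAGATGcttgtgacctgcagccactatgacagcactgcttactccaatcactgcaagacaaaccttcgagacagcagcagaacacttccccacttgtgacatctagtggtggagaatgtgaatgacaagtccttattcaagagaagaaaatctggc
Sp7, chr15:102377284-102377484, upstream: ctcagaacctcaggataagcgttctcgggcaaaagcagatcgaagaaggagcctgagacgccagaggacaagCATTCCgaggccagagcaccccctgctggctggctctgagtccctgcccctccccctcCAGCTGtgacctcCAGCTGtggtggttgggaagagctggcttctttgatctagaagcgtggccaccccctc
The remaining 4 were called in both libraries of 1 label and in no other library; the first pair carried the label maxillary process, the third mandibular process and the last nose.
Nkx3-2, chr5:41750385-41750585, downstream: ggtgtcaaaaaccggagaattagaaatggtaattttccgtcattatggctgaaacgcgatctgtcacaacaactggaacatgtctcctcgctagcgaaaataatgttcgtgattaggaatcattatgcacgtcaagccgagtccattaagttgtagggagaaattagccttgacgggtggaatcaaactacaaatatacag
Sox6, chr7:115860362-115860562, intron: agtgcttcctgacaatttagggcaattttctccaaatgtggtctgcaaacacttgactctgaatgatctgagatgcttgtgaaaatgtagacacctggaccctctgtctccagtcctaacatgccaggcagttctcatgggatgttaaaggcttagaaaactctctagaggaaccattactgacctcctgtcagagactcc
Sox6, chr7:115579202-115579402, intron: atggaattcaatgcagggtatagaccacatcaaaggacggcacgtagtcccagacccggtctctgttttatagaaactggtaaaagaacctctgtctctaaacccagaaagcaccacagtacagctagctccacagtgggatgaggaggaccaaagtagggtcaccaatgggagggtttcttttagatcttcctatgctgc
Acan, chr7:79080241-79080441, intron: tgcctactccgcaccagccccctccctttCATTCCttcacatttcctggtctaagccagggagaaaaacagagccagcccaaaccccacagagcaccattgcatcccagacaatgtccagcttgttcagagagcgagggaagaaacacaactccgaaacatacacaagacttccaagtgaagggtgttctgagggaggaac
The Sox5 window held 2 matches to the AP-1 motif and 1 to the E-box CATCTG. The Sp7 window held 1 TEAD match and 2 copies of the E-box CAGCTG, and the nose window of Acan 1 TEAD match. The Sox6 and Hapln1 windows called in all 6 libraries each held 1 CATCTG match. None of the 10 windows held either SOX motif, which says only that these letters are not in these windows.

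Each list of peaks was called on 1 library, and the files used here give no read counts. Presence of a peak is therefore the only measure tested across libraries, the depth in reads is unknown, and absence of a peak has no limit of detection. Strength is given as a percent rank or as the caller's −log10 q. The percent rank is the place of the peak in its own library's list ordered by −log10 p, as a percent of the list. Low values are strong, and lists differ in length, so ranks of different libraries are set side by side as descriptions. Tied peaks all take the best place of their tie. Weak peaks often tie, so their recurring values look better placed than they are. In bulk tissue fewer cells of a type and less accessibility per cell cannot be told apart. The lists held 219779 to 299731 summits, and each library called 36.5% to 48.6% of all regions, lowest in maxillary process replicate 1. The weakest listed −log10 q was 2.55 in maxillary process replicate 2, 1.62 in mandibular process replicate 1 and 1.3 in the others. Peaks weaker than the end of a list could not appear in it. Absence from maxillary process replicate 2 was thus set at a stricter −log10 q. The names of the 4 jaw files carry the abbreviation of the other jaw process, and among jaw patterning genes 3 of 7 lay with the file names: Hand2, a factor of the mandibular arch, had 4 regions found in both maxillary process libraries but neither mandibular process library and 0 the other way, while Alx1 and Alx4, genes of the upper face, had 0 against 7 and 0 against 5. Over all regions the directions were themselves uneven, at 3.52% for maxillary and not mandibular process and 5.4% the other way. Of all regions that differed between the jaw labels, 39.5% were of the maxillary process label. The Alx genes thus leaned in the direction of regions at large, but further than they did. Of the other genes checked, Dlx5 (0 against 2) and Dlx6 (2 against 3) had more regions of the mandibular process label, Dlx6 close to the share of all regions. Pou3f3 had 4 against 3 and Hand1 0 against 0. The libraries are therefore named by their labels throughout, and no direction between the 2 jaw labels is taken as one between jaws. Start sites of all 6 facial mesenchyme markers were called in all 6 libraries, as were those of all 5 markers each of epithelium, neurons and muscle, 3 of 5 of glia and neural crest, 3 of 5 of endothelium, 1 of 5 of erythroid cells and 0 of 4 of macrophages. Over all protein-coding genes, 65.8% had a start-site region called in all 6 libraries and 26.5% had none in any. Which of the listed cell types were present, and their part in the results below, was not tested.

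Of the 399 regions, 167 were called in maxillary process replicate 1, 191 in replicate 2, 204 and 190 in the mandibular process replicates and 186 and 201 in the nose replicates. A total of 83 regions (20.8%) were called in all 6 libraries, beside 18.3% of all regions, and 157 (39.3%) in a single library, beside 44.4%. The order of the shares called in all 6 libraries turned round with lists of equal length (20.8% beside 21.1%), at a −log10 q of at least 3 (18.8% beside 20.7%) and when a peak had to cover 50% of the region or 200 bp (12.5% beside 13%). The regions called in all 6 were wide and strong, with a median width of 497 bp and a median percent rank of 35.6, and those called in 1 library narrow and weak, at 92 bp and 77.5. Over all regions the median widths were 535 bp and 90 bp, and no such ranks are given. Regions joined from peaks of more libraries tend to be wider by construction, and each library's rank is that of its best peak there. The contrast is therefore not particular to these genes. Libraries with the same label shared 52.4% to 57.7% of the member regions called in either, beside 51% to 52.1% over all regions. The 12 pairs with different labels shared 42.6% to 49.2% of member regions. For such pairs no share over all regions was computed, so the gap is not shown to be particular to these genes.

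**Figure D1:**
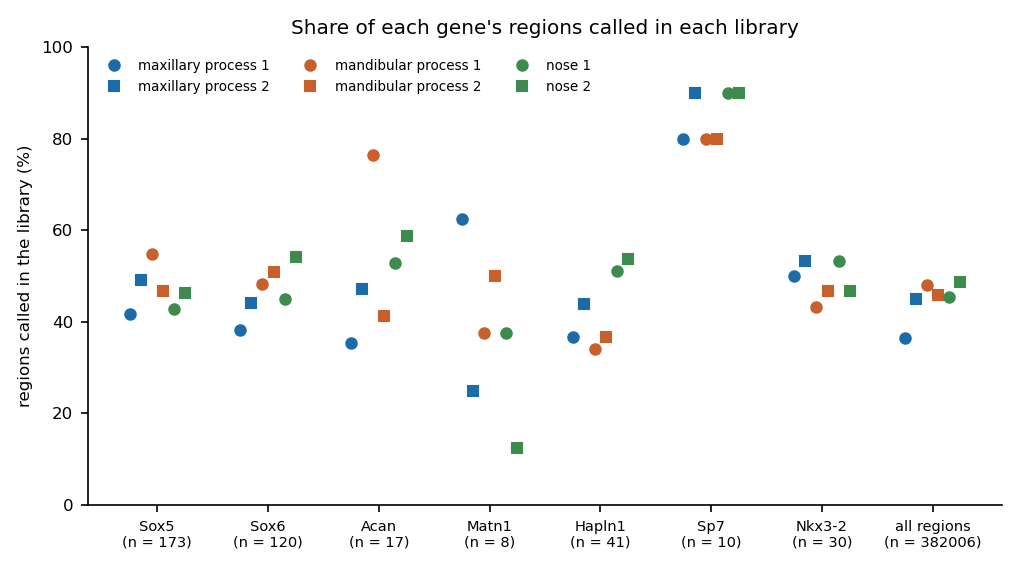
Share of the regions of each gene called in each library (y axis, percent; 1 point per library, coloured by label, with circles for replicate 1 and squares for replicate 2), with all 382006 regions at the right. Sp7 lay at 80% to 90% in every library, while Sox5 and Sox6 lay between 38.3% and 54.9%, near the values of all regions.

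At their start sites 6 of the 7 genes had a region called in all 6 libraries, beside 65.8% of 21851 protein-coding genes, and Matn1 had none in any library, as had 26.5% of genes. Sox5 and Sox6 each have several annotated coding starts. Sox5 has 2 groups of them: the upstream group (chr6:144209452-144209568) lay under a region of 1021 bp called in all 6 libraries, and the start at 143947106 had no region within 1 kb in any. Percent ranks at the upstream group were 14.3 and 7.46 in the maxillary process libraries, 15.2 and 9.47 in the mandibular process libraries and 8.64 and 5.98 in the nose libraries. All 6 libraries ranked it within the strongest 15.2% of the list.

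A further Sox5 start, that of noncoding transcripts at 144781919 to 144781977, far upstream, was chosen after its values were seen. It lay under a region of 1169 bp called in all 6 libraries, with percent ranks of 40.2, 14.6, 28.9, 18.7, 21 and 28.3 in the order of libraries used above. Its nearest coding start belongs to another gene, and the region entered through the Sox5 gene body.

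Sox6 has 5 groups of coding starts, and 3 of them had a region within 1 kb called in all 6 libraries. At the most upstream start (116038744 on chromosome 7) the strong region, of 1237 bp, began 517 bp before the start, with percent ranks of 15.6, 5.32, 7.58, 10.5, 9.12 and 9.34. The base of that start itself lay only under a weak region called in maxillary process replicate 2. At 116031047 the ranks were 29.9, 18.1, 30.2, 38.4, 27.3 and 43.4, and at 115824710 they were 90.1, 43.2, 53.6, 39, 66.9 and 35.3. The starts at 115846105 to 115846140 and at 115995086 had no region in any library. The most upstream start was the strongest of the 3 in every library, and 115824710 the weakest in all but nose replicate 2.

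The Hapln1 start was the strongest of the matrix genes, with percent ranks of 11 and 7.63 in the maxillary process libraries, 4.01 and 2.95 in the mandibular process libraries and 3.22 and 4.67 in the nose libraries. The values for the 2 maxillary process libraries were the highest of the 6 there. Acan ranked at 22.7, 20.3, 21.9, 16.2, 12.4 and 11.3, with the lowest values in the nose libraries. These are places in lists of unequal length and were not tested between labels. Nkx3-2 ranked at 12.5, 16.3, 10.9, 16.8, 13.3 and 12.8, a narrow range in which the labels overlapped. Sp7 was called at its start in all 6 libraries but weakly, at 95.6, 76.9, 65.8, 83.1, 82.2 and 96.3, with −log10 q of 1.72 to 3.64.

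**Figure D2:**
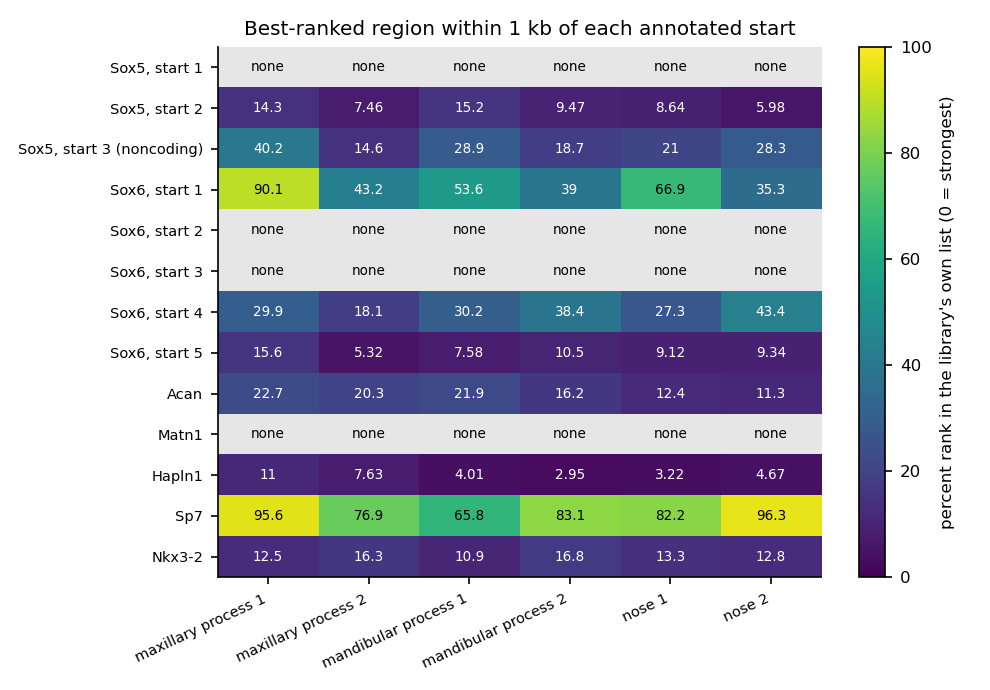
Best percent rank among regions within 1 kb of each annotated group of starts (rows, starts of a gene numbered by rising chromosome position) in each library (columns); dark is strong, and grey marks starts with no region. Hapln1, Sox5 start 2 and Sox6 start 5 were the darkest rows, Sp7 the palest called in all 6 libraries, and Matn1 had no region.

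Sox5 had the most regions, 32 of 173 (18.5%) called in all 6 libraries. Of the 173, 96 entered through the gene body only, among them the strongest region, named below. With the nearest start only, 16 Sox5 regions were called in all 6 libraries. The gene spans 954 kb, and its density of 18.1 regions per 100 kb compares with a median of 14 over all protein-coding genes. Regions lay on both sides of the upstream coding starts, 89 before them with 14 called in all 6 libraries, and 84 after them with 18. The strongest, chr6:144074829-144075386 in an intron, ranked at 9.78 and 7.5 in the maxillary process libraries, 3.07 and 2.94 in the mandibular process libraries and 7.21 and 7.29 in the nose libraries. It exceeded the gene's own start in mean rank (6.3 against 10.2), and it was 1 of only 2 regions of the 7 genes that lay in the strongest 10% of all 6 lists. Further intronic or upstream regions called in all 6 libraries followed at mean ranks of 11.2 (chr6:144166040-144167008), 12.6 (chr6:144264253-144265334) and 13.3 (chr6:143859558-143860425).

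Of the Sox5 regions, 9 were called in both libraries of 1 label only, all of them intronic. The 2 of the maxillary process label were chr6:144050457-144050964, at percent ranks 59.3 and 22.8, and chr6:144419459-144419551, at 77 and 88.5. The mandibular process label had 4, of which the best were chr6:144673747-144673993 (49.7 and 39.9), chr6:143997389-143997530 (58.9 and 67.6) and chr6:144118085-144118232 (58.9 and 83.6). The nose label had chr6:144155101-144155426 (57.9 and 39), chr6:143981186-143981297 and chr6:144759287-144759411, the last pair at 72.8 and 83.1 each. Of the 9, 6 had a mean percent rank above 50, and chr6:144419459-144419551 lay 45 bp from a region called in all 6 libraries.

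Sox6 had 25 of 120 regions (20.8%) called in all 6 libraries. Of the 120, 57 entered through the gene body only, and with the nearest start only 10 regions were called in all 6. The gene is 568 kb long and held 118 of the 120, and over its territory of 591 kb the density was 20.3 regions per 100 kb. Its strongest, chr7:115889928-115890291, ranked at 9.35 and 4.36, 1.41 and 3.54, and 4.47 and 3.65 in the maxillary process, mandibular process and nose libraries, and had the best mean rank (4.46) of all 399 regions. It was the other region in the strongest 10% of every list. A second intronic region, chr7:115645624-115646007, ranked at 11.1, 7.41, 2.77, 4.2, 11 and 4.93. Both exceeded the region at the most upstream Sox6 start, whose mean rank was 9.58. All 6 libraries placed the pair within the strongest 11.1% of their lists.

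Sox6 had 10 regions called under 1 label only, again all intronic. The strongest was chr7:115860182-115860583 of the maxillary process label, at 22 and 28.6, with no region called in all 6 libraries closer than 29.3 kb. The other of that label was chr7:115676705-115676881, at 77 and 79.5. The best of the 4 of the mandibular process label were chr7:115579108-115579474 (47.5 and 34.3), chr7:115693590-115693836 (55.7 and 55.1) and chr7:115996336-115996708 (86.8 and 47). Those of the nose label were chr7:115904351-115904680 (28.3 and 66.8), chr7:115832106-115832275 (55.8 and 65) and chr7:115668389-115668681 (89.3 and 37.1), besides a weak one 10 bp from a region called in all 6 libraries.

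Over the shares of their regions called in the 6 libraries, the genes most like Sox5 among 4802 with at least 20 regions were Sox1, Dlc1 and Ptn, at Euclidean distances of 0.0395, 0.0398 and 0.0411 (shares as fractions). Those most like Sox6 were Mad1l1, Magi1 and Rapgef5, at 0.0282, 0.0433 and 0.0449. These are descriptions over 6 libraries, which share their depth across genes.

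Nkx3-2 was the most densely covered of the 7 genes, with 30 regions in 68.1 kb, or 44.1 per 100 kb, a density above that of 97.6% of genes. It had 7 regions (23.3%) called in all 6 libraries, which lay between 24.7 kb upstream and 8.54 kb downstream of its start. Its 3 regions of the maxillary process label lay further downstream, at 14, 24.1 and 26 kb. The nearest of them, chr5:41750197-41750787, was 591 bp wide and ranked at 27.7 in maxillary process replicate 1 and 13.2 in replicate 2, with −log10 q of 6.97 and 19.3 and no peak in the other 4 libraries. It had the best mean rank (20.5) of all label-only regions of the 7 genes, and the nearest region called under another label lay 1.37 kb away. The other 2, chr5:41740282-41740726 and chr5:41738453-41738649, ranked at 75 and 56.5 and at 41.2 and 92. The mandibular process label had 1 region, chr5:41754223-41754383 (86.4 and 96.3), and the nose label 1, chr5:41767498-41767690, 3.06 kb upstream (46.2 and 49.7).

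**Figure D3:**
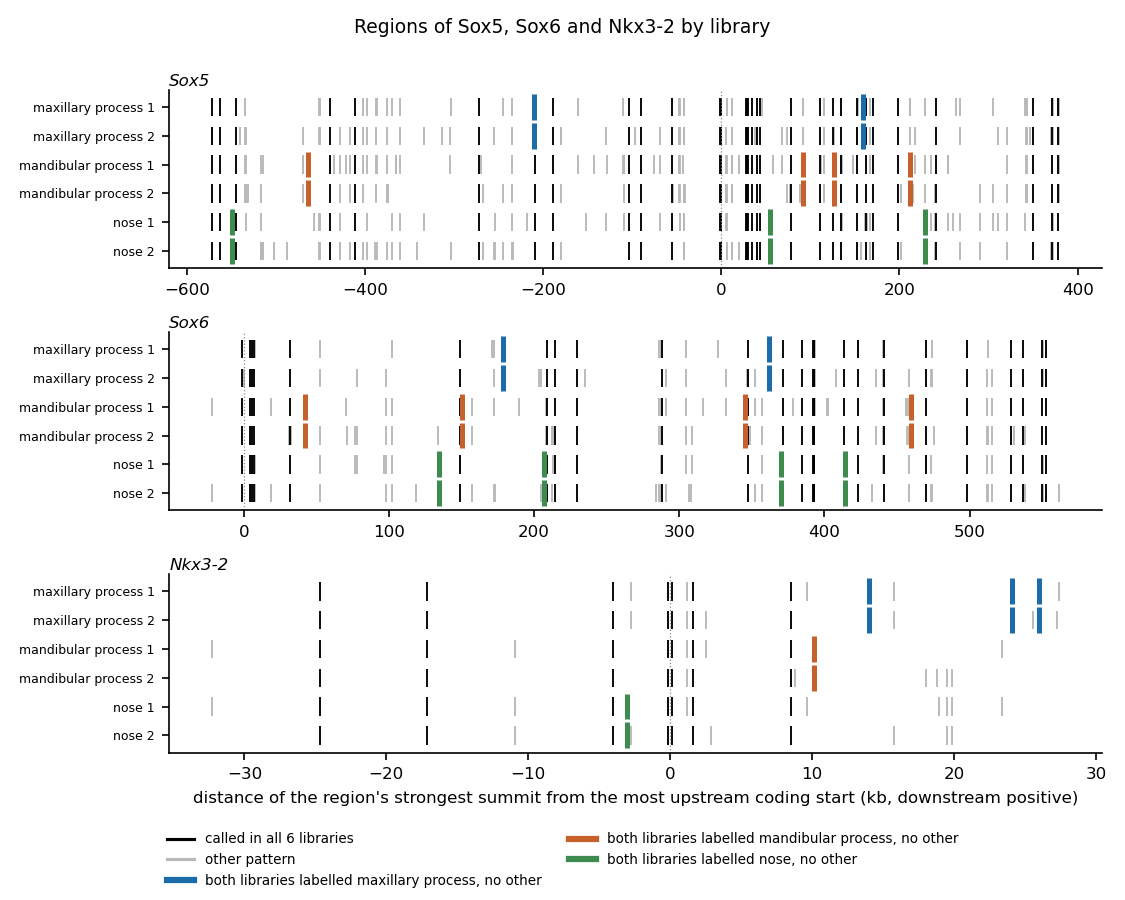
Regions of Sox5, Sox6 and Nkx3-2 in each library (rows), placed by the distance of the strongest summit from the most upstream coding start (x axis, kb, downstream positive); black ticks are regions called in all 6 libraries, thick coloured ticks those called in both libraries of 1 label only, and grey ticks all others. The 3 Nkx3-2 regions of the maxillary process label lay 14 to 26 kb downstream of the start, beyond all regions called in all 6 libraries.

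Among the matrix genes, Acan had 4 of 17 regions (23.5%) called in all 6 libraries. The strongest lay 63 kb upstream of its start, chr7:78989937-78990678, and ranked at 13.5 and 5.82 in the maxillary process libraries, 10.8 and 6.76 in the mandibular process libraries and 7.63 and 1.47 in the nose libraries. It exceeded the Acan start (mean rank 7.65 against 17.5), and its window was rich in G and C (65.2%). An intronic region 27.5 kb downstream, chr7:79080693-79081086, ranked at 16.1, 25.7, 13.2, 22.7, 15.5 and 22.2. Beside it, across 82 bp, lay the only Acan region of a single label, chr7:79080213-79080610, called in both nose libraries at 23.3 and 66.8 (−log10 q 8.6 and 2.63) and in none of the other 4. Mandibular process replicate 1 called 13 of the 17 Acan regions and replicate 2 called 7, while the other 4 libraries called 6 to 10.

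Hapln1 had 8 of 41 regions (19.5%) called in all 6 libraries, among them its start and the region directly after it. The distal one shown above, chr13:89634219-89634471, lay 94.5 kb downstream, past the end of the gene, and ranked at 46.7, 10.7, 14.8, 20, 13.1 and 35.6. No Hapln1 region was particular to the maxillary process label in the sense of both its libraries and no other. The mandibular process label had chr13:89468054-89468175 (49.7 and 83.6) and chr13:89555351-89555513 (70.9 and 67.6). The nose label had chr13:89445033-89445135 (47.2 and 66.8) and chr13:89499570-89499697 (72.8 and 83.1). All 4 were between 103 and 163 bp wide.

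Matn1 had the fewest regions, 8, at 6.92 per 100 kb, and none was called in all 6 libraries. The most widely called, chr4:130960180-130960406, lay 15.9 kb downstream and was absent from nose replicate 2 only, with percent ranks of 31.1, 79.5, 49.7, 39.9 and 72.8 in the other 5. A region 5.12 kb upstream, chr4:130939200-130939508, was called in both mandibular process and both nose libraries and in neither maxillary process library. Of the other 6, 3 were called only in maxillary process replicate 1.

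Sp7 differed in form: 7 of its 10 regions (70%) were called in all 6 libraries, or 23.3 per 100 kb, a density above that of 98.4% of genes. The count of 7 fell to 4 with lists of equal length and to 3 at a −log10 q of at least 3. Its territory, the stretch where regions could be assigned to it, was short (30 kb). Its strongest regions stood 3.96 to 10.9 kb upstream of the start, and the start itself was weak. The first, chr15:102377264-102377500, ranked at 9.75 and 8.02 in the maxillary process libraries, 9.23 and 10 in the mandibular process libraries and 7.89 and 6.46 in the nose libraries, with mandibular process replicate 2 just outside the strongest 10% of its list. The second, chr15:102376575-102377189, ranked at 16.7, 12.3, 5.7, 9.07, 13.8 and 6.34. Both were strong in every library, and no Sp7 region was called under 1 label only.

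**Figure D4:**
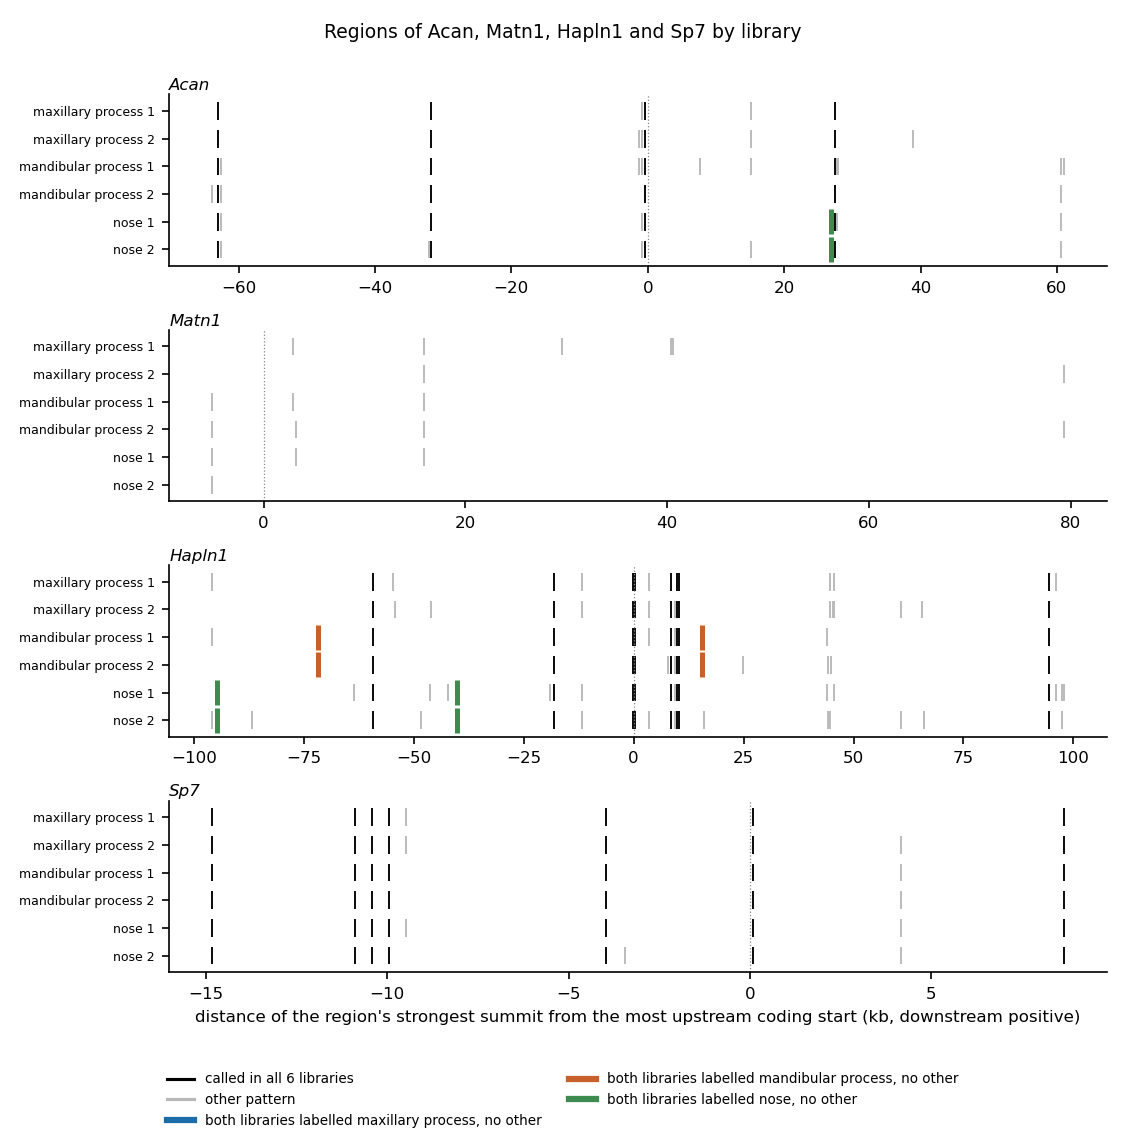
Regions of Acan, Matn1, Hapln1 and Sp7 in each library, drawn as for the regulators (x axis, kb from the most upstream coding start). Matn1 has no black tick, 7 of the 10 Sp7 regions are black, and the nose ticks of Acan lie beside a region called in all 6 libraries.

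Between labels, 7 of the 399 regions (1.75%) belonged to the maxillary process label alone (both of its libraries and none of the other 4), beside 1.91% of all regions. The count was 11 (2.76%) for the mandibular process label, beside 2.82%, and 11 (2.76%) for the nose label, beside 3.18%. All 3 shares were near those of the genome. None of the 29 regions lay within 1 kb of a coding start, 21 were intronic, and 20 had a mean percent rank above 50. Their median mean rank was 65.8, beside 67.5 for the 30210 such regions of the genome. Of the 29, 12 lay within 1 kb of a region called under another label. For these, a peak called at a shifted position and an absent peak were not told apart. The list of maxillary process replicate 2 ended at a −log10 q of 2.55. Weaker label-only regions, such as the Sox5 nose region chr6:143981186-143981297 (2.24 and 1.85), lay below that end.

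Pair by pair, 20 regions (5.01%) were called in both maxillary process libraries and neither mandibular process library, beside 3.52% of all regions, and 20 (5.01%) the other way, beside 5.4%. For maxillary process and nose the counts were 18 (4.51%, beside 3.72%) and 21 (5.26%, beside 5.72%). For mandibular process and nose they were 20 (5.01%, beside 5.11%) and 20 (5.01%, beside 5.21%). The 3 comparisons share libraries and are not independent of each other.

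**Figure D5:**
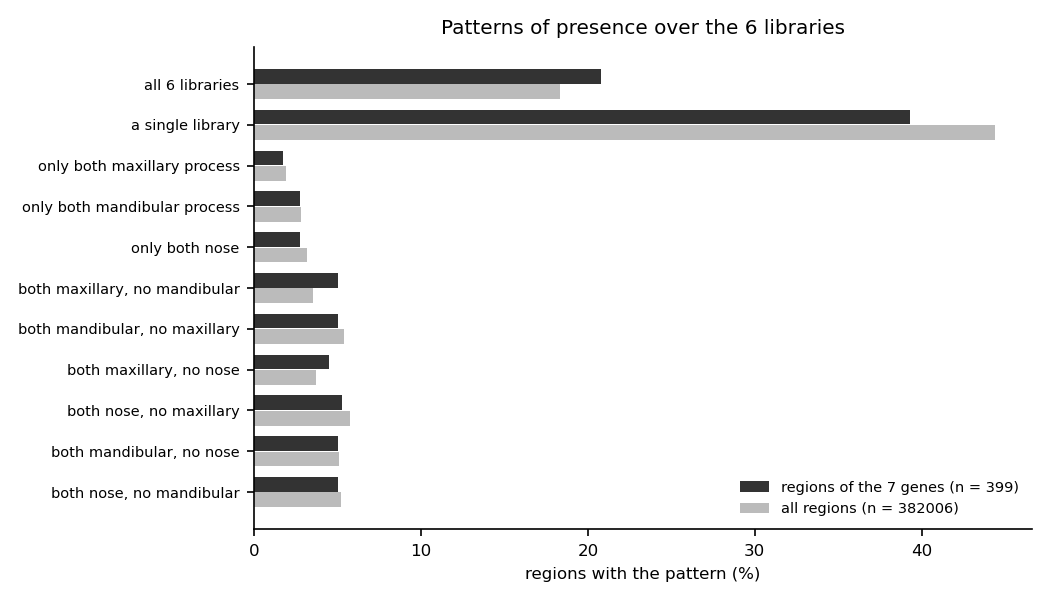
Share of regions with each pattern of presence (x axis, percent) for the 399 regions of the 7 genes (dark bars) and for all 382006 regions (light bars). The dark and light bars lie close together for the label patterns; they stand at 39.3% and 44.4% for a single library and at 20.8% and 18.3% for all 6 libraries, where the order turned under 3 other settings.

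Whether the differing regions of a gene leaned to 1 label was tested per gene, by an exact binomial test (two-sided) with the share of all regions as reference, for every gene that had at least 5 such regions, with Benjamini-Hochberg adjustment over all genes tested. No gene passed 0.05 (0% called of 1530 genes for maxillary against mandibular process, 0% of 1649 for maxillary process against nose and 0% of 1807 for mandibular process against nose). At an unadjusted p below 0.05 there were 101, 103 and 119 genes. Regions of 1 gene are not independent of each other, which makes these p-values too small. The smallest p among the 7 genes belonged to Nkx3-2, with 5 regions called in both maxillary process libraries and neither mandibular process library and 1 the other way (exact p = 0.0385, adjusted p = 0.641). Without mandibular process replicate 1 these counts became 5 against 6, and without replicate 2 they became 5 against 4 (45.5% and 55.6% in place of 83.3%, where all regions gave 25.6%, 22.9% and 39.5%). Sox5 had 11 regions called in both maxillary process libraries and neither nose library and 6 the other way, or 64.7% where all regions gave 39.4% (exact p = 0.045, adjusted p = 0.681). Sox6 had 5 against 7 for maxillary against mandibular process, 4 against 5 for maxillary process against nose and 4 against 7 for mandibular process against nose, with adjusted p of 1 in each exact test. The other tests of Sox5 gave 6 against 7 for the jaw labels (exact test, adjusted p = 1) and 13 against 8 for mandibular process against nose (exact test, adjusted p = 0.865), and Nkx3-2 had 3 against 4 for maxillary process against nose (exact test, adjusted p = 1). Hapln1 had 3 against 2 and 2 against 3 in the comparisons of mandibular process with maxillary process (maxillary first) and with nose (mandibular first), with adjusted p of 0.969 and 1 in the exact tests. Acan, Matn1 and Sp7 had fewer than 5 differing regions in each comparison and were not tested.

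Of the 36 other genes of the cartilage and bone programme, 23 had a start-site region called in all 6 libraries, 8 in some and 5 in none. Over all protein-coding genes, 65.8% had one in all 6 libraries and 26.5% had none in any. The 36 genes held 898 regions, of which 198 (22%) were called in all 6, beside 18.3% of all regions. None of their 20 testable combinations of gene and comparison passed the test of direction. Sox9, the master regulator of cartilage, had 40 regions with 6 called in all 6 libraries, and Col2a1, the main cartilage collagen, 20 with 6. The collagen genes Col9a1, Col9a2, Col9a3 and Col11a1 had 15 of 41, 4 of 10, 1 of 7 and 10 of 50, and each was called at its start in all 6 libraries. Col11a2 was called at its start in 5 libraries, not in mandibular process replicate 2, and none of its 4 regions was called in all 6. Comp, a matrix glycoprotein, had 2 of 10, with its start called in all 6.

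Most of the searched motifs were about as common in the regions of the 7 genes as elsewhere, and no difference in share was tested. A SOX motif of either form lay in 33 of the 399 windows of 201 bp (8.27%) and in 7.24% of all 382006 windows of the same length. Taken apart, ACAATGG lay in 16 of the 399 (4.01%, beside 2.64%) and ACAAAGG in 19 (4.76%, beside 4.72%). For the RUNX motif the shares were 6.27% and 5.39%, for the homeodomain motif 5.26% and 5.13%, for the AP-1 motif 6.77% and 6.88%, for the TEAD motif 15.5% and 13.9%, and for the GLI motif 0.251% and 0.201%. The E-boxes CAGCTG and CATCTG lay in 18% and 19%, and in 15.8% and 20.7% of all windows. Of the 33 windows with a SOX motif, 15 belonged to Sox5 and 14 to Sox6. Among regions called in all 6 libraries, 7 of 83 (8.43%) held one, beside 6.14% of all such regions: 6 of 25 for Sox6, 1 of 32 for Sox5 and 0 for the other genes. In the same 83, RUNX stood at 7.23% beside 4.84% and homeodomain at 6.02% beside 3.84%. AP-1 (4.82% beside 5.73%) and CAGCTG (15.7% beside 17.7%) went the other way. The median share of G and C was 47.8% beside 47.3% for all windows. A match to these short motifs is a description of the sequence and not a bound site.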

How the data were processed

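Members and gene lists were chosen with earlier results of these data known. Bowtie2, SAMtools and mm10 stand in the submitters' processing notes without versions, and the peak caller is not given in the sources used here. The authors deposited 1 peak list per library, giving per summit a score, a fold (ratio of summit to background), significance as −log10 p and −log10 q, and an offset. The lowest deposited −log10 q was 1.3 in 4 lists and 1.62 and 2.55 in the others, which hold close to the same number of lines (299731 and 299726). Peaks sharing at least 1 bp were merged, and starts came from the GENCODE M21 basic annotation (mm10). Starts of a gene within 500 bp were grouped. Coordinates are 1-based. The test of direction was the exact binomial test of scipy 1.17.1, tested on simulated data first, with numpy 2.4.6, pandas 2.3.3, matplotlib 3.10.9 and Python 3.11.15. Regions named were those at annotated starts, the best-ranked one called in all libraries, and those of a single label, up to 3 per label and gene. Sequences came from the RefSeq copy of GRCm38. Alternatives were lists of equal length, a −log10 q of at least 3, a cover of 50% or 200 bp, other rules of assignment and leaving out each library.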

Additional observations from a re-analysis of the deposited data

How the results depend on the processing

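Presence in lists of unequal length and unknown depth limits all counts. With the lists cut to 219779 lines each, the 7 genes had 6 regions of the mandibular process label only, 11 of mandibular process and not maxillary process, 12 of nose and not maxillary process and 12 of mandibular process and not nose, and 1 gene, none of the 7, passed the test of maxillary process against nose. At a −log10 q of at least 3, 45 regions were called in all libraries (18.8%, beside 20.7% of all regions) and 4 under each label only; the pairs gave 7 and 6 (maxillary and mandibular process), 10 and 7 (maxillary process and nose) and 12 (nose, not mandibular process). With a cover of 50% or 200 bp, 50 were called in all libraries (12.5%, beside 13%), and with lists of equal length 60 (20.8%, beside 21.1%). By gene, equal lists and the stricter −log10 q left 4 and 3 such regions for Sp7 (7 before). They left 4 and 3 for Hapln1 (8 before) and 5 and 4 for Nkx3-2 (7 before). For Sox5 they left 25 and 16 (32 before), and for Sox6 19 and 16 (25 before). With the nearest start only, without gene bodies, 51 were called in all libraries (21.1%, beside 18.3%), 4 under the maxillary and 7 under the mandibular process label only, and the pairs gave 12 and 12, 10 (maxillary process, not nose), 11 and 11 (mandibular process and nose), since by construction regions inside gene bodies but far from a start drop out.

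Without 1 library at a time, regions called in all the rest numbered 85 to 93. Those of 1 label only ranged from 8 to 33 (maxillary process), 11 to 45 (mandibular process) and 12 to 50 (nose), since a label with 1 library needs only that one; the high ends came without maxillary process replicate 1, mandibular process replicate 2 and nose replicate 1. The pairs ranged from 20 to 55 and 20 to 64 (maxillary and mandibular process), 18 to 54 and 21 to 71 (maxillary process and nose), and 20 to 66 and 20 to 72 (mandibular process and nose). Genes past the test of direction ranged from 0 to 2, 0 to 5 and 0 to 6 in the 3 comparisons, and none was among the 7.

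Relative to the genome's share, the lean of Sox6 between the jaw labels turned at 50% with equal lists, 40% at the stricter −log10 q, 33.3% with the nearest start only, and, at some values, over libraries left out (24.1% to 56.5%). The genome's own shares there were 54.4%, 48.7% and 39.5%, and 22.9% to 64.9% over libraries left out. Leaving out 1 library also turned it for Sox6 in maxillary process against nose (19.4% to 63.6%) and mandibular process against nose (20.6% to 68.2%), for Sox5 between the jaw labels (21.4% to 69.4%) and for Nkx3-2 in maxillary process against nose (41.7% to 60%). The genome's share moved as well, from 22.9% to 64.7% for maxillary process against nose and from 30.7% to 68.8% for mandibular process against nose. The ends of these ranges therefore give no lean by themselves. Sox5 turned at 21.4%, beside 22.9% of the genome, and Nkx3-2 at 60%, beside 64.7%. None of these leans passed the test. No paired analysis was possible because presence of peaks came from no sample-level model and the replicate numbers are not said to pair libraries.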
